A study of Mus musculus with 20 samples.

Results

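Claudins and the proteins that join them at the tight junction were measured in the kidneys of mice with and without Fh1, the gene for fumarate hydratase, by RNA-seq. The members are 8 claudins (Cldn2, Cldn10, Cldn16, Cldn19, Cldn8, Cldn3, Cldn4 and Cldn7), occludin (Ocln) and ZO-1 (Tjp1), taken by gene symbol, and each had 1 row among the 24421 symbols of the count table. All 10 passed the filter on low counts in every comparison. The 20 libraries fall into 4 groups of 5, which are Fh1-/- kidneys at day 10, Fh1+/+ kidneys at day 10, Fh1-/- kidneys at day 5 and Fh1+/+ kidneys at day 5 after induction. Mice of both genotypes carried Cre-ERT2 at the Rosa26 locus, which is active in all cell types, and received 3 injections of 2 mg tamoxifen at 12 weeks of age. Fh1-/- mice had floxed Fh1 alleles that the Cre excises, and Fh1+/+ mice were littermates without them, on a mixed background of C57BL/6 and 129/SvJ. Loss of Fh1 is therefore not limited to tubule cells. RNA came from small pieces of whole kidney, and the mix of nephron segments can differ from piece to piece. The labels do not name the animals, and the p-values therefore cover the spread among libraries, part of which may be technical. Each group held libraries low and libraries high in Y-linked transcripts, and so more than 1 animal, but the number of animals is not given.

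Claudins are membrane proteins that span the lateral membrane of epithelial cells, meet their partners on the neighbouring cell and decide which ions cross between cells. Claudin-2 forms a pore for cations and water in the proximal tubule, and claudin-10 occurs there as an anion pore and in the thick ascending limb as a cation pore, the isoforms differing in their first exon. Claudin-16 and claudin-19 act together in the thick ascending limb, where calcium and magnesium are reabsorbed, and the loss of either causes magnesium wasting. Claudin-3, claudin-4, claudin-7 and claudin-8 line the distal nephron and the collecting duct, where the junction is tight, and claudin-4 and claudin-8 together form a chloride path there. Occludin is a further membrane protein of the junction, and ZO-1 is the scaffold that ties claudins to actin.

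The sequences upstream of Cldn2 and Cldn19, whose levels did not overlap between the genotypes at day 10, are shown here with those of the 4 other genes of largest absolute log2 fold change, which are Cldn4, Cldn7, Cldn3 and Cldn10 and whose genotypes overlapped. RefSeq promoter windows (build GRCm38.p6, 250 bases before to 50 after a start site) were matched for 9 of the 10 genes, and Cldn8 had no entry. Capitals mark matches, on either strand, to the AP-1 site TGANTCA, the cyclic AMP element TGACGTCA, the STAT site TTCNNNGAA, the Snail-type E-box CAGGTG, the grainyhead-like site AACNNGTT or the TATA box TATAAA. The Cldn2 window is at chrX:139800558-139800857 (plus strand), the upstream of 2 overlapping Cldn19 windows at chr4:119255191-119255490 (plus strand), Cldn10 has start sites at chr14:118787621-118787920 (plus strand) and chr14:118854700-118854999 (plus strand), Cldn3 is at chr5:134985964-134986263 (plus strand), Cldn4 at chr5:134946885-134947184 (minus strand) and the downstream of 2 Cldn7 start sites at chr11:69965171-69965470 (plus strand). Each is printed 5′ to 3′ on the strand of its gene.
Cldn2: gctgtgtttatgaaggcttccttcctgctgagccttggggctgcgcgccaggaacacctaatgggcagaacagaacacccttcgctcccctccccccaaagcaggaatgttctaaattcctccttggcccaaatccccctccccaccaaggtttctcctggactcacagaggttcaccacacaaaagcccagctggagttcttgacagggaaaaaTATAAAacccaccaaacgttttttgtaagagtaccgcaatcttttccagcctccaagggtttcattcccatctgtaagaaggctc
Cldn19, upstream start: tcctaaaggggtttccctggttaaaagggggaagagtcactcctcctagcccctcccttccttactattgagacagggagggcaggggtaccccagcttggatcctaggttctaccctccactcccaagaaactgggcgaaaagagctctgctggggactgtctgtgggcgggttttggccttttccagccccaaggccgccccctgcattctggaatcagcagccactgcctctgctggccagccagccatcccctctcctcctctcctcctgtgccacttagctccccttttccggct
Cldn10, upstream start: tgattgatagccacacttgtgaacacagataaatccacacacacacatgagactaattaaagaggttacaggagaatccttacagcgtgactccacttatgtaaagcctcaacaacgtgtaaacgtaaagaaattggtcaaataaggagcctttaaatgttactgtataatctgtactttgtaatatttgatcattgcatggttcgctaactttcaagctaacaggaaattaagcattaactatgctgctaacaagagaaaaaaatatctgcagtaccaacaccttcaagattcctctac
Cldn10, downstream start: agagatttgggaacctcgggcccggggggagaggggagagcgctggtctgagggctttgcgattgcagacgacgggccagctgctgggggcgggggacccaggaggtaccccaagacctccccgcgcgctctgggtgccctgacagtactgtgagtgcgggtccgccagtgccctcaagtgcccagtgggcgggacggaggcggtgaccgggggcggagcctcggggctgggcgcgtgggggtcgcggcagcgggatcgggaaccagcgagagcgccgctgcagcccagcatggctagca
Cldn3: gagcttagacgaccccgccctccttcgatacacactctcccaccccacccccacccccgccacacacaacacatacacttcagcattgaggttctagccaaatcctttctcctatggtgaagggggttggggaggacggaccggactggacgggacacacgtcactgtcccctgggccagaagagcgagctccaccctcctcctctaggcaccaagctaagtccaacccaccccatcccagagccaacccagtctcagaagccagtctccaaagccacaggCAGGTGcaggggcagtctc
Cldn4: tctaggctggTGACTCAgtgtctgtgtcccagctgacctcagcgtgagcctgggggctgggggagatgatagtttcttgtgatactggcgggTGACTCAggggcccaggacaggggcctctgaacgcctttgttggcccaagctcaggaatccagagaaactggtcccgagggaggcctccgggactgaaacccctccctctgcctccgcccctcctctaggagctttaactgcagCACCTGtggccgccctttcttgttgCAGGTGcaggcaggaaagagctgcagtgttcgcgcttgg
Cldn7, downstream start: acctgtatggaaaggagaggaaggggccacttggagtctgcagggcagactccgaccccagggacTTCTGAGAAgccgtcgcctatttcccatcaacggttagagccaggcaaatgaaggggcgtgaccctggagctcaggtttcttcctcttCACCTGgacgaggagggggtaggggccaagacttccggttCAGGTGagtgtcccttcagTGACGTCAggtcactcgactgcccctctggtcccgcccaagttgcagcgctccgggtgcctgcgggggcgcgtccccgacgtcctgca

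A TATA box lay in the Cldn2 window, starting 35 bases before the start site, and 13.6% of all 32544 windows of this length held one. The Cldn4 window held 2 AP-1 sites, at 240 and 158 bases before the start, against 7.79% of windows with at least 1. Of the 13 windows of the 9 genes, E-boxes occurred 2 times in the Cldn4 window, 2 times in the downstream Cldn7 window and 1 time in the Cldn3 window. They occurred 1 and 2 times in the Ocln windows, which overlap and share 1 of these sites, and in none of the other 8. Of all windows, 20.3% held one. The downstream Cldn7 window also held a cyclic AMP element, found in 1.80% of windows, and a STAT site, found in 8.33%. The windows of Cldn10, Cldn19, Cldn16 and Tjp1 and the upstream window of Cldn7 held none of the 6 motifs, and grainyhead-like sites, found in 4.19% of windows, were in none of the 13. The GC content of the Cldn10 windows was 36.0% at the upstream and 72.0% at the downstream start. The matches are letters only, and they overlapped with one another in none of the windows printed.

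Total counts ranged between 16654829 and 25001294 per library. Fh1 itself was at 351, 248, 365, 413 and 359 CPM (library-size-scaled counts, TMM-normalized) in libraries labelled Fh1-/- at day 10, against 247, 231, 233, 222 and 259 CPM in Fh1+/+ libraries. At day 5 it was at 199 to 242 CPM in Fh1-/- and 215 to 266 CPM in Fh1+/+ libraries. The Cre removes exons 3 and 4, the counts cover the whole gene, and the level therefore does not check the genotype, which rests on the labels. Replicates 1 and 3 of the Fh1-/- day 10 group stood apart from all other libraries, at −125 and −128 on the first principal component against −30.3 to 31.3, and Spp1, an injury-induced gene, took 10.3% and 9.50% of their counts. The counts of these 2 differed from each other by a chi-square per degree of freedom of 7.49. It was 55.9 to 373 for the other pairs of their group and 9.81 or more for pairs within other groups. Whether both came from 1 animal is not given. Replicates 1 and 3 were set apart after their values were seen, so they are not a group of the study, and the day 10 log2 fold changes are given with and without them. Both were outside the range of the other 18 libraries for 8 of the 10 genes, above it for 4 and below it for 4, and of all genes tested 23.3% were above and 22.5% below. Both held almost no Y-linked transcripts, as did replicate 5 of their group, replicates 2 and 5 of Fh1-/- day 5, replicates 2 and 3 of Fh1+/+ day 10 and replicate 1 of Fh1+/+ day 5, and the sexes are therefore mixed within groups.

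In the GENCODE annotation of GRCm38, Cldn16 lies at chr16:26463135-26482765, Cldn19 at chr4:119255414-119262438, Cldn3 at chr5:134986214-134987472, Cldn4 at chr5:134945119-134946934, Cldn7 at chr11:69964779-69967885 and Cldn8 at chr16:88560828-88563183. Ocln lies at chr13:100496507-100552718 and Tjp1 at chr7:65296165-65527781. RefSeq lists no gene between Cldn3 and Cldn4.

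In Fh1+/+ kidneys the claudins of the leaky proximal tubule were the most abundant. Per kilobase of exon, at day 10, Cldn2 was at 172 ± 27.1 and Cldn10 at 102 ± 17.2 CPM per kb (SD, n = 5 libraries here and in the rest of this paragraph). Cldn8 followed with 49.4 ± 12.1 CPM per kb. Cldn4 was at 24.8 ± 12.2, Cldn3 at 21.2 ± 4.61, Cldn7 at 18.1 ± 4.35 and Cldn19 at 17.0 ± 3.25 CPM per kb, and these 4 neighbours did not differ beyond their spread. Cldn16 was at 11.8 ± 0.841, Ocln at 9.29 ± 0.473 and Tjp1 at 7.67 ± 1.99 CPM per kb, of which Ocln and Tjp1 overlapped within their SDs. In Fh1-/- kidneys at day 10 Cldn2 stayed first with 256 ± 29.9 CPM per kb, and Cldn4 at 99.5 ± 110, Cldn7 at 60.4 ± 57.8, Cldn3 at 55.9 ± 42.6 and Cldn10 at 52.1 ± 29.4 CPM per kb had SDs so wide that their order is not set.

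Loss of Fh1 was compared first at day 10. With edgeR, 0 of the 10 genes passed an adjusted p under 0.01 together with an absolute log2 fold change above 0.58, in a comparison where 8 of 14360 genes (0.0557%) did. At an unadjusted p under 0.05, 8 of the 10 genes passed, 5 higher and 3 lower in Fh1-/-, and 27% of all genes tested did so. DESeq2 called 1 of the 10, Cldn19, where it called 5.54% of all genes. The libraries of the genotypes did not overlap for 2 of the 10, Cldn2 and Cldn19, and for 7.64% of all genes. The median log2 fold change of the 10 genes was 0.21, that of all genes −0.000735.

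**Figure D1:**
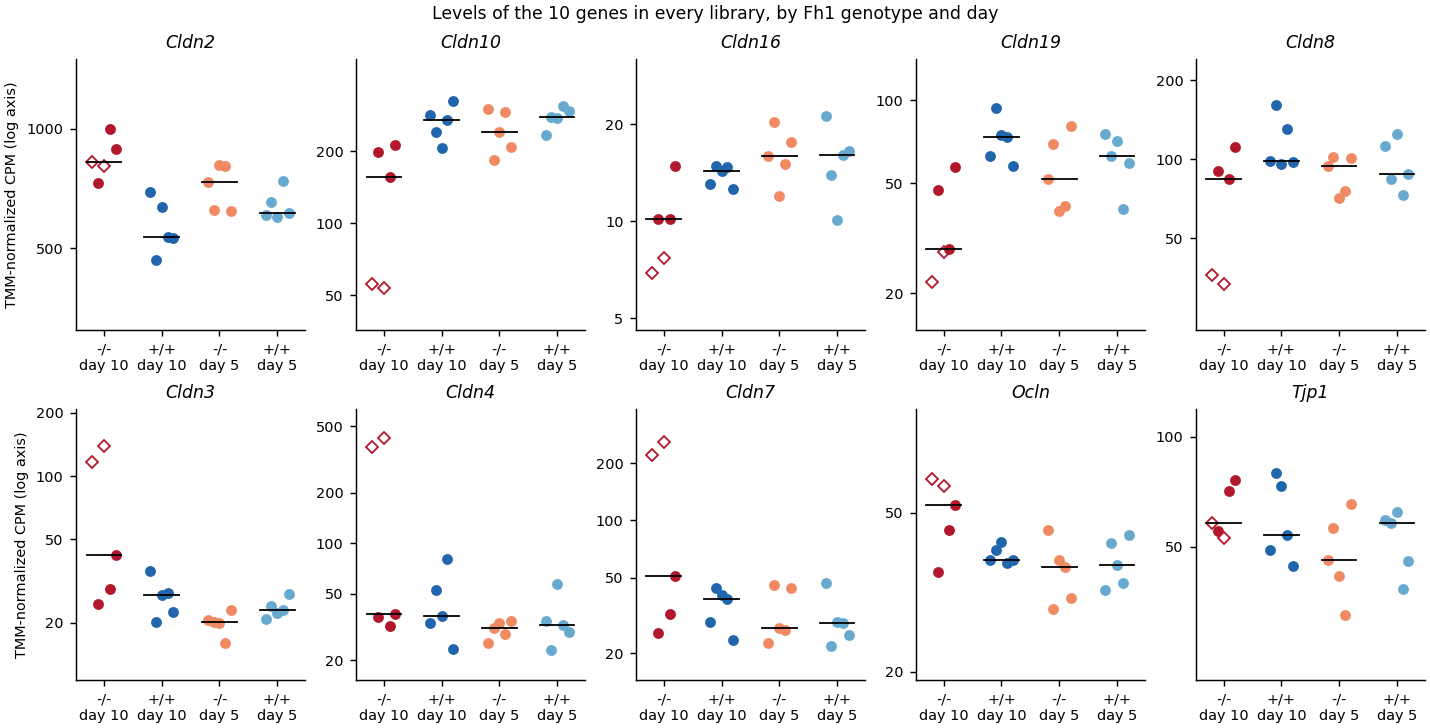
Level of each gene in every library, as TMM-normalized CPM on a log axis, with Fh1-/- left of Fh1+/+ at day 10 and at day 5. Points are libraries, bars are medians of 5, and open diamonds are Fh1-/- day 10 replicates 1 and 3, which lie above the other 18 libraries for Cldn3, Cldn4, Cldn7 and Ocln and below them for Cldn10, Cldn16, Cldn19 and Cldn8.

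Cldn2, the cation pore of the proximal tubule, was at 826, 732, 806, 997 and 890 CPM in Fh1-/- kidneys at day 10, against 692, 467, 636, 535 and 530 CPM in Fh1+/+ kidneys. Each of the 5 Fh1-/- libraries was above all 5 Fh1+/+ libraries, and the 2 that stood apart lay in the middle of their group. Its log2 fold change was 0.57 (standard error, SE, 0.15, adjusted p = 0.064 in the edgeR quasi-likelihood test), and without replicates 1 and 3 it was 0.62 (adjusted p = 0.104 by edgeR). DESeq2 gave an adjusted p of 0.0013 with a log2 fold change of 0.57, just under the fold threshold, and without those 2 libraries it called the gene at 0.61 (adjusted p = 0.00775 by DESeq2). The adjusted p of the alternatives, single libraries left out included, ranged between 0.0013 and 0.151. Cldn2 is on chromosome X (GRCm38, chrX:139800828-139811386, plus strand).

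Cldn10, the other claudin of the leaky segment, went the opposite way in its values. It was at 55.8, 198, 53.5, 156 and 211 CPM in Fh1-/- kidneys at day 10, against 284, 241, 205, 271 and 323 CPM in Fh1+/+ kidneys. In 4 of 5 Fh1-/- libraries it was below every Fh1+/+ library, and replicates 1 and 3 were the lowest of all 20. On the log2 scale the difference was −0.98 (SE 0.38, adjusted p = 0.143 by edgeR) and −0.48 without those 2 libraries (SE 0.16, adjusted p = 0.175 by edgeR). The gene lies at chr14:118787908-118875489 (GRCm38), with its start sites far apart, and counts per gene do not separate the proximal from the thick ascending limb isoform.

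Cldn10 and the proximal tubule markers were lowest in the same 2 libraries. The summed level of 8 such markers, such as Slc34a1, the phosphate transporter, and Lrp2, which encodes megalin, was 3824 and 4029 CPM in Fh1-/- day 10 replicates 1 and 3 and 10343 to 14333 CPM in the other 3, against 12171 to 16025 CPM in Fh1+/+ kidneys. None of the 8 was at 0 in any group and none passed the test, and 7 of the 8 had a log2 fold change under 0. The median of the 8 was −0.48, and −0.18 without replicates 1 and 3, where 2 were above 0. Other cell types were low in replicates 1 and 3 too. The sums in replicates 1 and 3 were 109 and 122 CPM for endothelium, against 424 to 725 CPM in Fh1+/+ kidneys, and 143 and 138 CPM for podocytes, against 252 to 508 CPM. They were 43.5 and 51.8 CPM for leukocytes, against 167 to 201 CPM, and 97.5 and 99.9 CPM for fibroblasts and smooth muscle, against 241 to 470 CPM. In a bulk library, fewer cells of a type and less RNA per cell cannot be told apart, and the part of the markers in the Cldn10 values was not tested. Cldn2 did not follow this sum, since it was at 826 and 806 CPM in the same 2 libraries.

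The ratio of Cldn2 to Cldn10, both per kilobase, was 11.5, 2.88, 11.7, 4.96 and 3.28 in Fh1-/- kidneys at day 10, against 1.90, 1.51, 2.41, 1.54 and 1.28 in Fh1+/+ kidneys. All 5 Fh1-/- values were above all 5 Fh1+/+ values, with or without the 2 libraries that stood apart. At day 5 the ratio was 1.90 to 2.63 in Fh1-/- and 1.62 to 2.03 in Fh1+/+ kidneys, which overlap. As the genes were chosen with results known, the ratio is a description without a test.

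The claudins of the thick ascending limb were both lower in value. Cldn19, which with Cldn16 forms the cation-selective junction of that segment, was at 22.0, 47.4, 28.3, 29.0 and 57.0 CPM in Fh1-/- kidneys at day 10, against 62.7, 93.8, 74.5, 73.4 and 57.9 CPM in Fh1+/+ kidneys. The genotypes did not overlap, although the highest Fh1-/- library came within 1 CPM of the lowest Fh1+/+ library. The log2 fold change was −0.98 (SE 0.26, adjusted p = 0.065 by edgeR), and −0.69 without replicates 1 and 3 (adjusted p = 0.170 by edgeR). DESeq2 called it lower with an adjusted p of 0.0069, within a range of 0.0069 to 0.17 over the alternatives. Without those 2 libraries DESeq2 no longer called it (adjusted p = 0.049).

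Cldn16, its partner, was at 6.88, 10.2, 7.67, 10.2 and 14.8 CPM in Fh1-/- kidneys at day 10, against 13.1, 14.8, 14.3, 14.7 and 12.6 CPM in Fh1+/+ kidneys. Here 4 of 5 Fh1-/- libraries were below all Fh1+/+ libraries and 1 was above them. Its log2 fold change was −0.49 (SE 0.20, adjusted p = 0.153 by edgeR), and −0.23 without replicates 1 and 3. Of 6 thick ascending limb markers, such as Umod, which encodes uromodulin, none passed the test and 5 had values under 0. The median log2 fold change of these markers was −0.60, and −0.07 without replicates 1 and 3, where 2 were above 0. Their summed level was 7520 and 7637 CPM in replicates 1 and 3 and 11568 to 20726 CPM in the other 3 Fh1-/- libraries, against 8398 to 15769 CPM in Fh1+/+ kidneys, and its part in the values of both claudins was not tested.

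Among the distal claudins, Cldn4 had the largest spread. It was at 374, 36.2, 424, 31.8 and 37.5 CPM in Fh1-/- kidneys at day 10, against 33.3, 52.2, 36.5, 80.1 and 23.4 CPM in Fh1+/+ kidneys. Replicates 1 and 3 were the highest of all 20 libraries, and the other 3 lay inside the range of Fh1+/+. On the log2 scale the difference of 1.99 (SE 0.80, adjusted p = 0.148 by edgeR) turned to −0.35 without the 2 (SE 0.35, adjusted p = 0.617 by edgeR). It was 1.11 with the Y-linked level as a covariate and 0.000984 with limma-voom, which weights libraries by their quality.

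Cldn7 was at 222, 25.5, 258, 32.0 and 51.0 CPM in Fh1-/- kidneys at day 10, against 29.3, 43.9, 40.5, 38.7 and 23.6 CPM in Fh1+/+ kidneys. Its log2 fold change of 1.73 (SE 0.63, adjusted p = 0.122 by edgeR) was 0.05 without replicates 1 and 3, 1.02 with the Y-linked covariate and 0.34 with limma-voom. Cldn3 was at 117, 24.7, 140, 29.0 and 42.0 CPM in Fh1-/- kidneys, against 35.3, 20.2, 27.2, 27.9 and 22.6 CPM in Fh1+/+ kidneys. Its log2 fold change of 1.39 (SE 0.47, adjusted p = 0.106 by edgeR) was 0.28 without those libraries and 0.44 with limma-voom. For both genes replicates 1, 3 and 5 were above every Fh1+/+ library, replicate 5 by a smaller margin.

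Cldn8, which shares the collecting duct with Cldn4, was lowest where Cldn4 was highest. It was at 36.2, 90.3, 33.5, 83.8 and 112 CPM in Fh1-/- kidneys at day 10, against 98.6, 160, 95.6, 130 and 97.0 CPM in Fh1+/+ kidneys, with replicates 1 and 3 the lowest of all 20. The log2 fold change was −0.72 (SE 0.34, adjusted p = 0.195 by edgeR) and −0.28 without them. Per kilobase, Cldn4 over Cldn8 was 13.4 and 16.5 in replicates 1 and 3, 0.436 to 0.520 in the other Fh1-/- day 10 libraries and 0.313 to 0.798 in Fh1+/+ kidneys at day 10.

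Markers of the cells that make these claudins were set beside Cldn4 in the same day 10 libraries. The summed level of 8 principal cell markers, such as Aqp2, the vasopressin-regulated water channel, was 856 and 1003 CPM in replicates 1 and 3. It was 906 to 1727 CPM in the other Fh1-/- day 10 libraries, against 891 to 1486 CPM in Fh1+/+ kidneys. None of the 8 passed with edgeR or DESeq2, and only 3 were higher in value in Fh1-/- (median −0.24 on the log2 scale). Aqp2 was at 0.43, but Avpr2 was at −1.43 and Aqp4 at −1.33. At an unadjusted p under 0.05 by edgeR, 3 were lower and 0 higher. Without replicates 1 and 3, 4 of the 8 were higher in value (median 0.02). The summed level of 5 urothelial markers was 4.54 and 4.19 CPM in replicates 1 and 3, within the 1.60 to 56.0 CPM of their group, against 4.09 to 90.7 CPM in Fh1+/+ kidneys, and none of these genes was at 0. The sum of 8 tubular injury markers, Havcr1 (KIM-1), Lcn2 and Spp1 among them, was 137120 and 129993 CPM in replicates 1 and 3, 3049 to 13798 CPM in the other 3, against 1164 to 2435 CPM in Fh1+/+ kidneys. Most of it was Spp1 alone, at 123183 and 114846 CPM in replicates 1 and 3, and 2674 to 13067 CPM in the other 3. Spp1 was at 801 to 2010 CPM in Fh1+/+ kidneys. All 8 injury markers had values above 0, 0 passed with edgeR and 5 with DESeq2. Their median log2 fold change was 3.96, and 1.65 without replicates 1 and 3, where 6 were above 0 and DESeq2 called 2. The part of these injury markers in the claudin values was not tested.

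**Figure D2:**
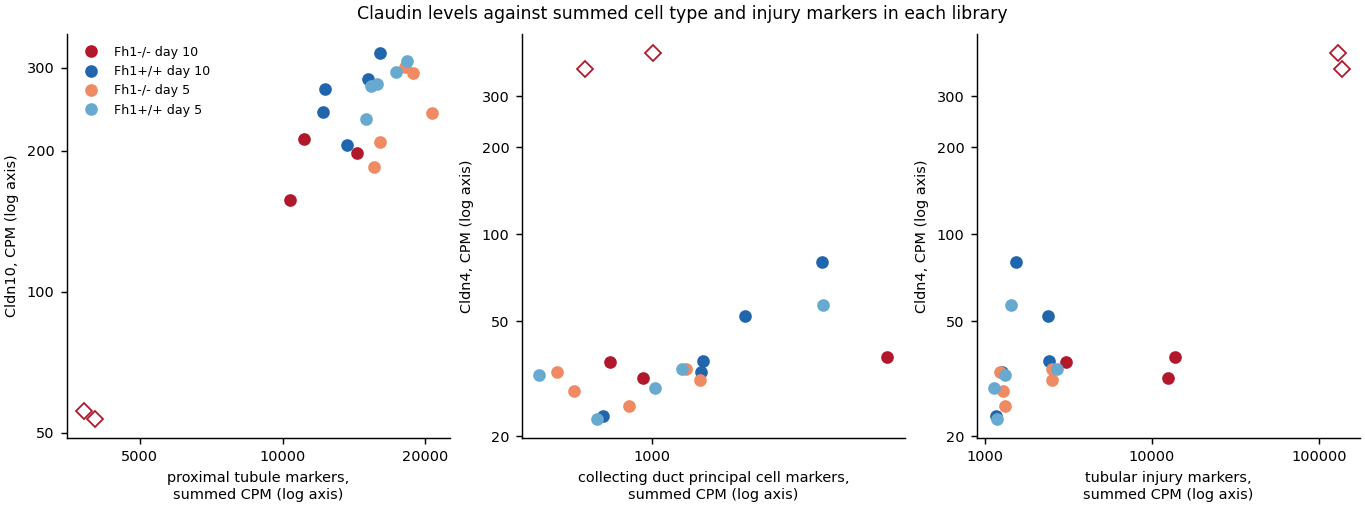
Cldn10 against the sum of 8 proximal tubule markers, and Cldn4 against the sums of 8 principal cell and 8 tubular injury markers, in CPM on log axes, 1 point per library. The injury sum is mostly Spp1. Open diamonds are Fh1-/- day 10 replicates 1 and 3, where Cldn10 and the proximal sum are both lowest, and Cldn4 is at 374 and 424 CPM while the principal cell sum is within the range of the other libraries.

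Occludin was at 60.8, 35.5, 58.4, 45.2 and 52.3 CPM in Fh1-/- kidneys at day 10, against 38.2, 40.3, 42.3, 37.5 and 38.0 CPM in Fh1+/+ kidneys. In 4 of 5 Fh1-/- libraries it was above every Fh1+/+ library, and in 1 below all of them. Its log2 fold change was 0.36 (SE 0.14, adjusted p = 0.143 by edgeR), and 0.19 without replicates 1 and 3. Tjp1, the scaffold, was at 52.8 to 76.0 CPM in Fh1-/- and 44.2 to 79.5 CPM in Fh1+/+ kidneys, with a log2 fold change of 0.06 (SE 0.18, adjusted p = 0.855 by edgeR) that was 0.18 without replicates 1 and 3, and the genotypes overlapped.

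**Figure D3:**
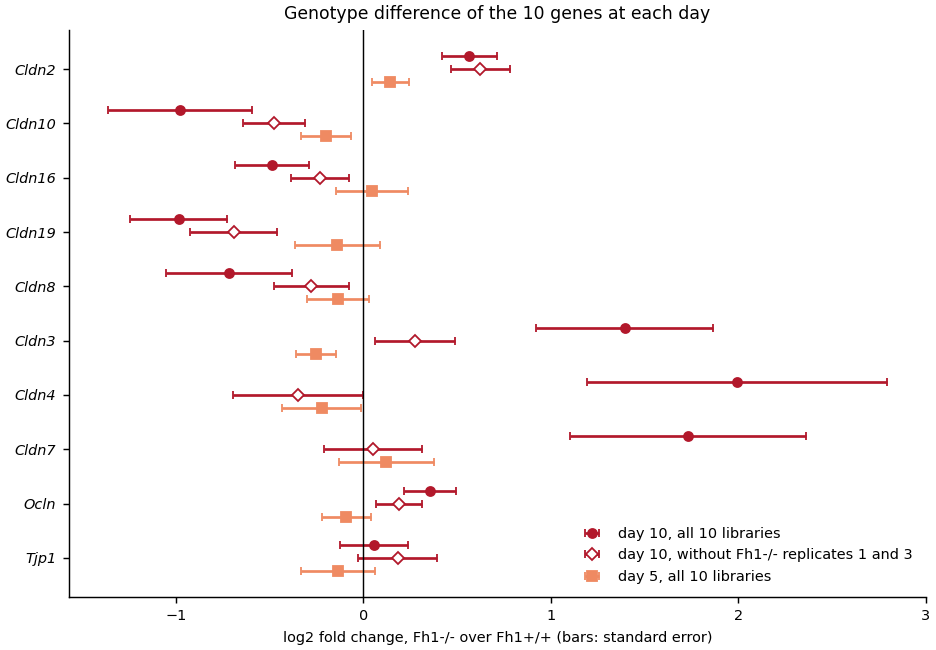
Log2 fold change of Fh1-/- over Fh1+/+ for each gene, with its standard error, at day 10 with all 10 libraries (filled circles), at day 10 without Fh1-/- replicates 1 and 3 (open diamonds) and at day 5 (squares). The values of Cldn3, Cldn4 and Cldn7 lie at 1.39, 1.99 and 1.73 with all libraries and at 0.28, −0.35 and 0.05 without the 2, whereas Cldn2 lies at 0.57 and 0.62.

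The make-up of the 8 claudins was then set side by side, as shares of their summed CPM per kb. The 4 distal claudins held 60.3% and 64.0% of it in Fh1-/- day 10 replicates 1 and 3 and 19.8% to 25.4% in the other 3, against 21.4% to 33.5% in Fh1+/+ kidneys at day 10. Cldn2 held 35.1% and 31.6% in those 2 libraries and 53.2% to 64.0% in the other 3, against 34.8% to 47.4% in Fh1+/+ kidneys. Cldn10 held 3.04% and 2.69% in the 2 libraries and 12.9% to 18.8% in the others, below the 19.7% to 31.8% of Fh1+/+ kidneys. The 8 claudins summed to 709 and 767 CPM per kb in replicates 1 and 3 and 407 to 503 in the other 3, against 393 to 447 CPM per kb in Fh1+/+ kidneys.

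On the log2 scale, the mean of Cldn2 and Cldn10 minus the mean of the 4 distal claudins was 0.65, 3.32, 0.47, 3.31 and 2.98 in Fh1-/- kidneys at day 10, against 3.36, 2.68, 3.02, 2.71 and 3.64 in Fh1+/+ kidneys. The group means differed by −0.94 (SD 1.46 in Fh1-/- and 0.41 in Fh1+/+, n = 5 each) and by 0.12 without replicates 1 and 3, so the direction rests on those libraries. Against the 2 thick ascending limb claudins the same mean was higher by 4.09 ± 0.27 in Fh1-/- and by 3.61 ± 0.33 in Fh1+/+ kidneys (SD, n = 5 each).

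**Figure D4:**
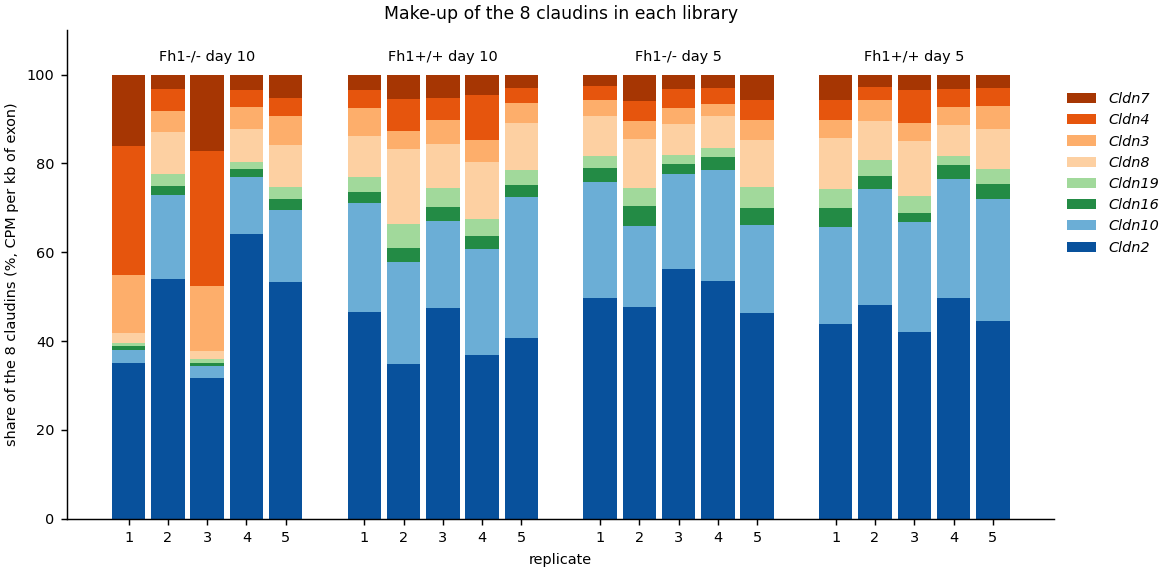
Share of each claudin in the summed CPM per kb of the 8, as a stacked bar per library from 0 to 100%, with the 5 replicates of each group side by side. Replicates 1 and 3 of Fh1-/- day 10 have 60.3% and 64.0% in the 4 distal claudins (orange and brown), and the other Fh1-/- day 10 libraries have 19.8% to 25.4%.

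At day 5 none of the 10 genes separated the genotypes. With edgeR, 0 of the 10 passed, where 5 of 14404 genes (0.0347%) did, and DESeq2 called 0 of the 10 and 0.215% of all genes. At an unadjusted p under 0.05 there was 1 of the 10, against 4.78% of all genes. It was Cldn3, at 20.5, 20.3, 19.9, 16.1 and 23.0 CPM in Fh1-/- kidneys, against 20.8, 24.1, 22.4, 23.0 and 27.4 CPM in Fh1+/+ kidneys, with a log2 fold change of −0.25 (SE 0.11, adjusted p = 1 by edgeR). The other log2 fold changes were between −0.22 for Cldn4 and 0.14 for Cldn2. None of the 10 had separate genotypes, as 0.903% of all genes did. Cldn2 was at 620 to 811 CPM in Fh1-/- and 600 to 740 CPM in Fh1+/+ kidneys, and Cldn10 was at 184 to 301 CPM in Fh1-/- and 233 to 310 CPM in Fh1+/+ kidneys.

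Whether the genotype difference grew between the days was tested in a model of all 20 libraries, where edgeR passed 5 of 14934 genes (0.0335%) and 0 of the 10. At an unadjusted p under 0.05 there were 6 of the 10, against 20.1% of all genes, and DESeq2 called 0 of the 10 and 1.81% of all genes. The log2 difference at day 10 exceeded that at day 5 by 1.64 for Cldn3 (SE 0.51, adjusted p = 0.103 by edgeR), 2.21 for Cldn4 (0.86, 0.175) and 1.60 for Cldn7 (0.71, 0.216), and by 0.41 for Cldn2 (0.17, 0.201), with SE and adjusted p in parentheses. It was lower by 0.85 for Cldn19 (SE 0.35, adjusted p = 0.194 by edgeR), given as −0.85 on the log2 scale. Without replicates 1 and 3 the values were 0.52 for Cldn3, −0.13 for Cldn4, −0.08 for Cldn7 and 0.48 for Cldn2.

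Without loss of Fh1 no gene passed between the days. At day 10 against day 5, 0 of the 10 and 0 of 14501 genes (0%) passed with edgeR, and likewise 0 (0%) with DESeq2. At an unadjusted p under 0.05 it was 0 of the 10 and 575 genes, or 3.97%. No overlap between the days was seen for 0.559% of all genes and none of the 10, whose log2 fold changes lay between −0.17 for Cldn2 and 0.36 for Cldn4.

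Outside the Fh1-/- day 10 group the libraries were also split by their Y-linked transcripts. Among those 15 libraries, Cldn7 was at 40.5 to 46.7 CPM in the 5 with a Y-linked sum of at most 0.649 CPM and at 21.7 to 38.7 CPM in the 10 with 97.1 CPM or more, without overlap. It was the 1 of the 10 genes that did not overlap, as was so for 11.2% of 14930 genes, the Y-linked ones left out. Cldn19 was at 69.3 to 93.8 CPM in the 5 libraries low in Y-linked transcripts and 39.5 to 73.4 CPM in the other 10. Cldn10 was at 184 to 241 CPM in the 5 and 240 to 323 CPM in the 10. These libraries were split by their measured Y-linked level, and the difference was not tested. With that level as a covariate, Cldn7 at day 5 had a log2 fold change of −0.07 against 0.12 without it.

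Of 15 other claudins in the table, 7 were tested at day 10 and none passed with edgeR or DESeq2, with a median log2 fold change of −0.29, and 0.01 over 8 tested without replicates 1 and 3. Cldn23 had the lowest p (log2 fold change 1.64, SE 0.74, adjusted p = 0.185 by edgeR) and was at 0.220 to 5.18 CPM in Fh1-/- kidneys, against 0.207 to 1.27 CPM in Fh1+/+ kidneys, and without those 2 libraries it was 0.18 on the log2 scale. Cldn12, a claudin linked to calcium transport, followed with −0.29 (adjusted p = 0.280 by edgeR), at 65.9 to 115 CPM in Fh1-/- and 98.2 to 126 CPM in Fh1+/+ kidneys, and was −0.0472 without them. Cldn14, which blocks the Cldn16 and Cldn19 pore, was below the filter, with 129 reads over the 5 Fh1-/- libraries, against 10 reads over the 5 Fh1+/+ libraries at day 10. These reads were spread unevenly, at 0.0560 to 3.44 CPM (median 1.25) in Fh1-/- and 0 to 0.212 CPM in Fh1+/+ libraries. Cldn24 had 0 reads in all 20 libraries.

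The partner proteins of the junction were listed in 4 groups. Of 10 other membrane proteins 9 had log2 fold changes above 0 at day 10 and none passed, with a median of 0.45 beside that of −0.000735 over all genes. Without replicates 1 and 3 the median was 0.26, beside −0.00737 over all genes, and again 9 were above 0. Those 2 libraries were far above the rest for several of them, such as Igsf5, a junction adhesion protein, at 188 and 181 CPM there and 68.9 to 71.5 CPM in the other 3, against 60.3 to 83.2 CPM in Fh1+/+ kidneys. Cxadr, the coxsackievirus and adenovirus receptor, was at 108 and 93.6 CPM there and 39.7 to 51.6 CPM in the other 3, against 41.6 to 49.4 CPM in Fh1+/+ kidneys. Both were chosen after their values were seen. F11r, which encodes JAM-A, was at 340, 156, 335, 193 and 197 CPM in Fh1-/- kidneys, against 134, 150, 167, 139 and 123 CPM in Fh1+/+ kidneys (0.77 on the log2 scale, SE 0.22, adjusted p = 0.0778 by edgeR, and 0.37 without those 2 libraries). Marveld2, the tricellular junction protein tricellulin, was at 20.5 to 41.3 CPM in Fh1-/- and 19.1 to 21.8 CPM in Fh1+/+ kidneys (0.59, adjusted p = 0.0911 by edgeR, and 0.27 without them). Among 19 scaffold and polarity proteins none passed, 8 were above 0 and the median was −0.03, and without replicates 1 and 3 it was 15 and 0.07. Ybx3, the ZO-1-binding factor ZONAB, was at 57.2 to 100.4 CPM in Fh1-/- and 49.3 to 55.2 CPM in Fh1+/+ kidneys (0.53, adjusted p = 0.101 by edgeR, and 0.21 without those 2), without overlap.

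Of 11 adherens junction and desmosome proteins, DESeq2 called Pkp2, the desmosomal plakophilin-2, and edgeR none, with a median of 0.14, and −0.03 without replicates 1 and 3. Pkp2 was at 64.6, 36.3, 63.6, 59.9 and 45.3 CPM in Fh1-/- kidneys at day 10, against 30.2, 30.4, 28.0, 34.5 and 33.1 CPM in Fh1+/+ kidneys (0.78 on the log2 scale, SE 0.16, adjusted p = 0.0383 by edgeR), and the genotypes did not overlap. Without replicates 1 and 3 it was 0.61, and DESeq2 no longer called it (adjusted p = 0.0185 by DESeq2). Jup, which encodes plakoglobin, was at 246 to 397 CPM in Fh1-/- and 203 to 256 CPM in Fh1+/+ kidneys (0.40, adjusted p = 0.119 by edgeR, and 0.24 without the 2). Of 12 regulators of claudins none passed, 1 was above 0 and the median was −0.28, and without replicates 1 and 3 it was 4 and −0.09. Snai2, a repressor of junction genes, was at 0.246 to 1.71 CPM in Fh1-/- kidneys, against 2.02 to 4.34 CPM in Fh1+/+ kidneys (−1.35, adjusted p = 0.128 by edgeR, and −0.80 without those 2). Snai1, its relative, was at 1.17 to 2.15 CPM in Fh1-/- and 1.40 to 3.83 CPM in Fh1+/+ kidneys (−0.65, adjusted p = 0.199 by edgeR, and −0.45 without them).

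In the 10 Fh1+/+ libraries, which differ in their Y-linked level and in the piece of kidney, the levels of the genes were set beside the marker sums. Spearman's rank correlation with the summed proximal markers was 0.83 for Cldn10 and 0.49 for Cldn2, and with the principal cell markers 0.90 for Cldn4, 0.84 for Cldn8 and −0.04 for Cldn3. Cldn19 had 0.72 with the thick ascending limb markers and Cldn16 0.26, but Cldn19 had more with endothelium (0.87), tubular injury (0.83) and podocyte markers (0.77), and −0.93 with the proximal ones. Cldn7 had 0.93 with the tubular injury and 0.64 with the principal cell markers, and Tjp1 0.93 with endothelium. In these libraries Spp1 made up most of the injury sum. That sum was 2394 to 2696 CPM in those low in Y-linked transcripts, against 1144 to 1539 CPM in the others. The part of the Y-linked level in these correlations was not tested. Among 13691 genes, the most alike over these libraries were Hspd1, Gpr137b-ps and Rnf14 for Cldn10, Elmod3, Bnip3 and Slc35e3 for Cldn2, Stk39, Anxa6 and Nfe2l1 for Cldn19 and Dnal4, Vegfa and Fos for Cldn16. They included Apobec3 and Hspb1 for Cldn4, Bcar3, Ap1m2 and Tor3a for Cldn7, S1pr3, Mfap1b and Mpzl1 for Cldn8, Zcchc14, Dyrk2 and Pdpr for Ocln and Sim1, Bicd2 and Ptbp3 for Tjp1. The rank correlation of these genes was 0.92 to 0.99, and with 10 libraries and this many genes such values are descriptions only.

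For Cldn3 they were Rnf114, Wbscr25 and Angptl4, at 0.95, 0.94 and 0.90. Wbscr25 overlaps Cldn3 on the opposite strand, and its reads were 3.28% to 8.59% of those of Cldn3 in each library. Whether the counting used strand is a detail not given in the sources used here, and the reads of this pair cannot be told apart.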

How the data were processed

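Raw counts per gene symbol of 20 kidney libraries were used as the authors deposited them. Per the paper's methods, the authors sequenced stranded libraries of polyadenylated RNA, mapped reads with STAR 2.6.0c to GRCm38, removed adapters and reads of low mapping quality and counted with Rsubread and GENCODE gene models. The deposited counts are not normalized and hold no pooled replicates.

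Each comparison was fitted over all genes with edgeR 4.0.16 (TMM, filterByExpr, glmQLFit, glmQLFTest, Benjamini-Hochberg) in R 4.3.3, each day and the Fh1+/+ days on their own 10 libraries and the difference between days on all 20. Standard errors are the log2 fold change over the root of F. The test was run on simulated counts with 1 dispersion per gene in both groups and no libraries standing apart. That check therefore does not cover the spread within the Fh1-/- day 10 group. CPM are TMM-normalized over all libraries, and log2 CPM use a prior count of 2. Exon lengths and positions are from GENCODE vM21 and promoters from RefSeq. Named from the related lists were the calls, or else the 2 genes of lowest p at day 10, and the 3 genes most like each member among those of 1 CPM or more. Of the genes these rules name, 2 are not reported here. The members and lists were chosen with earlier results of these data known. Alternatives were DESeq2 1.42.0, RLE, other filters and thresholds, the replicate block, a Y-linked covariate, limma 3.58.1 with voom weights, 1 fit of all libraries and leaving out each library. Leaving out Fh1-/- day 10 replicates 1 and 3 together and, for the mean of leaky minus distal claudins, a prior count of 0.5 and leaving out each library were chosen after seeing the data. The cut-offs for a call follow the study. The range of total counts per library is given above, and the lowest count of the 10 genes in any library was 108 reads.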

Additional observations from a re-analysis of the deposited data

How the results depend on the processing

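The direction of the day 10 log2 fold change held under every alternative for Cldn2, Cldn10, Cldn16, Cldn19, Cldn3, Cldn7, Cldn8 and Ocln, and 0 of the 10 genes was called except by DESeq2 (1, Cldn19) and by DESeq2 without Fh1-/- day 10 replicates 1 and 3 (1, Cldn2, at 0.61). Without those 2 libraries Cldn4 reversed to −0.35 (−0.36 with DESeq2) at day 10, and in the difference between days Cldn4 to −0.13 (−0.14) and Cldn7 to −0.0753 (−0.0853), and the mean of leaky minus distal claudins moved to 0.12, with −1.23 to −0.52 when 1 library was left out. The genes called at day 10, 8 at first, were 796 with DESeq2, 16 with no filter, 3 with a stricter one, 406 at an adjusted p under 0.05, 20 with the Y-linked covariate, 15 with limma-voom, 838 in 1 fit of all libraries, and 2 (408 with DESeq2) without replicates 1 and 3. At day 5, 5 at first, they were 31 with DESeq2, 9 at an adjusted p under 0.05 and 8 with the Y-linked covariate. In the difference between days, 5 at first, they were 271 with DESeq2, 10 with no filter, 11 with a stricter one, 161 at an adjusted p under 0.05, 92 with the Y-linked covariate, 9 with limma-voom, and 3 (111 with DESeq2) without replicates 1 and 3. Leaving out 1 library gave 0 to 235 genes at day 10, 2 to 4 at day 5 and 3 to 296 in the difference, with the highest counts at day 10 and in the difference without Fh1-/- day 10 replicate 2 and 0 at day 10 without Fh1+/+ replicate 4 or 5. With the Y-linked covariate Cldn16 and Cldn7 at day 5 reversed to −0.0485 and −0.0668 and Cldn10 between the Fh1+/+ days to 0.000427, and Ocln between those days to −0.0162 with limma-voom. Leaving out 1 library reversed Tjp1 at day 10 (−0.0326 to 0.182), Cldn16 (−0.0723 to 0.186), Cldn4 (−0.342 to 0.0314) and Cldn7 (−0.0282 to 0.335) at day 5, and Cldn10 between the Fh1+/+ days (−0.149 to 0.00877). With limma-voom and its quality weights, day 10 values were 0.44 for Cldn3, 0.000984 for Cldn4, 0.34 for Cldn7, −0.46 for Cldn8 and 0.23 for Tjp1, and with the Y-linked covariate 1.11 for Cldn4 and 1.02 for Cldn7. The cause was not tested.

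Whether the replicate numbers pair littermates is not given. Same-numbered libraries deviated together with a correlation of −0.27 to 0.09 at day 10 and −0.51 to 0.33 at day 5, which cannot exclude a pairing. With the replicate block 0 genes passed at day 10, 0 at day 5 and 2 in the difference between days, and 0 of the 10 genes in each. Genotypes rest on the labels, and a lower level in cells of a segment cannot be told apart from a smaller share of that segment in the piece of kidney.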
